A study of Mus musculus with 18 samples.

Results

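The genes described here are 10 liver enzymes that reduce or oxidise steroid hormones: the steroid 5α-reductases Srd5a1 and Srd5a2, the aldo-keto reductases Akr1c6 and Akr1c14, and the hydroxysteroid dehydrogenases Hsd3b2, Hsd3b3, Hsd3b5, Hsd11b1, Hsd17b2 and Hsd17b6. They were taken by gene name from the 54532 genes of the deposited table, all 10 were found, and they were chosen on measured levels in these same mice. Their differences between groups are therefore given as a description, with no test. Poly-A RNA was sequenced from the liver of 18 male C57BL/6J mice, and levels are given as FPKM, the fragments per gene length and library size. Group NC (6 mice) received a standard diet, group HFD (6 mice) the high-fat diet D12492 with saline, and group SZ-A (6 mice) the same high-fat diet together with Ramulus Mori (Sangzhi) alkaloids (SZ-A), which come from mulberry twigs. High-fat feeding lasted 14 weeks before treatment began, and the deposited description gives 8 weeks of treatment, where the study's methods give a shorter time. All mice were fasted overnight before the liver was taken. The dose and route of SZ-A in the sequenced mice were not given in the sources used here. Strain and sex were the same in all 3 groups.

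The liver inactivates most of the circulating steroid hormones. The 5α-reductases, together with the 5β-reductase Akr1d1, reduce the A ring of testosterone, progesterone and glucocorticoids, and the 3α- and 3β-hydroxysteroid dehydrogenases then act on the reduced products. Hsd11b1 works in the opposite sense and regenerates active corticosterone from its inert 11-keto form, while the 17β-hydroxysteroid dehydrogenases interconvert weak and strong androgens and estrogens. Many of these genes differ between male and female mouse liver, a difference set by the pattern of growth hormone secretion.

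Fragments on genes ranged from 17163191 to 20493907 per mouse, and depth overlapped between the groups. NC5 stood apart: its mean correlation with the rest of its group was 0.951, and its best correlation with any mouse was 0.955. For the other 17 mice these were at least 0.9593 and 0.9719. The lowest correlation of NC5 with any mouse was 0.911, whereas the lowest between any pair of the other 17 was 0.944. The diet label of NC6 reads high-fat, which goes against its title, and it was kept in NC. Of the 2025 genes called between HFD and the other NC mice, NC6 was nearer to the NC mice for 1358 (67.1%). Main values for the genes below are also given without NC5 or NC6. In a whole-tissue sample fewer cells of a type and less RNA per cell cannot be told apart. The 6 hepatocyte markers measured summed to 37900 to 56900 FPKM in NC mice, 24300 to 42400 in HFD mice and 30500 to 53600 in SZ-A mice. Alb was the largest part, with means of 29400, 21500 and 24000 FPKM, and 2 of the 6, Apoa1 and Cps1, were called lower in HFD than in NC. Stellate cell markers summed to 41.6 to 59.4, 50 to 99.0 and 45.7 to 61.7 FPKM, and 5 of the 7 were called higher in HFD than in NC. The 7 Kupffer cell and macrophage markers summed to 84.5 to 179, 134 to 283 and 155 to 202 FPKM in the same order, with 3 called higher in HFD than in NC. Of these 7, Cd68 was called lower in SZ-A than in HFD. Cholangiocyte marker sums of 10.9 to 39.0, 21.8 to 44.3 and 15.1 to 30.1 overlapped between groups, as did endothelial sums of 41.1 to 53.1, 41.8 to 56.3 and 48.5 to 55.3. T cell and B cell markers summed to less than 1 FPKM in every mouse. The part of these markers in the results was not tested. Markers of the adrenal cortex, the main other steroid-making tissue, were near 0: Cyp11b1 and Mc2r were at 0 in all 18 mice and the 5 markers summed to at most 1.02 FPKM. The adipocyte list summed to at most 7.51 FPKM in NC mice, 20.1 to 135 in HFD mice and 1.02 to 31.1 in SZ-A mice, nearly all of it Cfd, whereas Adipoq, Plin1 and Lep stayed at or under 0.618 FPKM in every mouse.

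**Figure D1:**
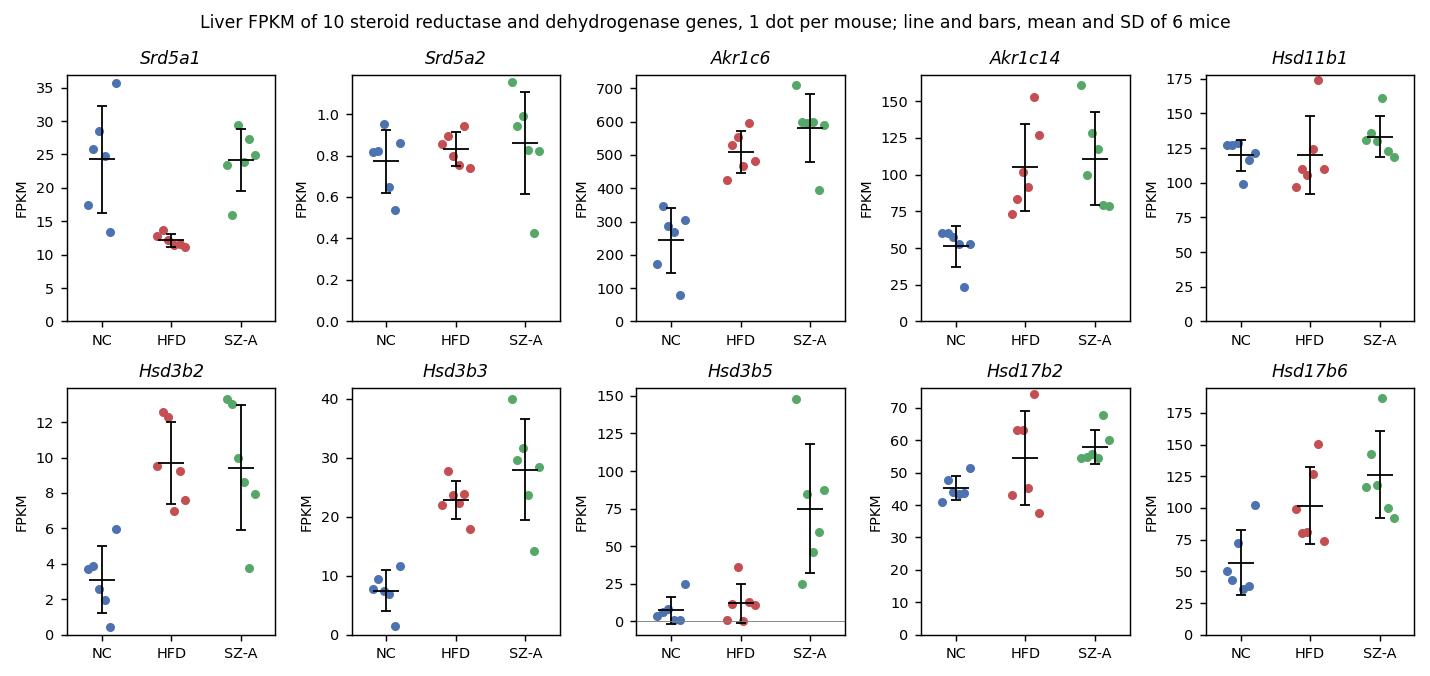
Liver FPKM (vertical axes, linear) of the 10 genes in NC, HFD and SZ-A mice, 1 dot per mouse, with a line at the mean and bars of 1 SD for 6 mice. Srd5a1 lay at 11.2 to 13.7 FPKM in all HFD mice and at 15.9 to 29.4 in all SZ-A mice, while Akr1c6, Akr1c14, Hsd3b2 and Hsd3b3 were higher in every HFD mouse than in any NC mouse.

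Srd5a1, the 5α-reductase of liver, was the only one of the 10 genes whose HFD and SZ-A mice did not overlap. Its gene lies on chromosome 13 (69573449 to 69611442, minus strand, GRCm38; ENSMUSG00000021594). In NC mice the lowest level was 13.4 FPKM, the median 25.3 and the highest 35.7. HFD mice ranged only from 11.2 to 13.7, with a median of 11.9. SZ-A mice ranged from 15.9 to 29.4, with a median of 24.4. All HFD mice were thus below all SZ-A mice, and 5 of the 6 were below every NC mouse. The single overlap with NC came from NC5, at 13.4 FPKM. Spread differed as well as level, with a coefficient of variation of 32.8% for NC, 7.81% for HFD and 19.2% for SZ-A. On the log2(FPKM + 0.1) scale Srd5a1 was lower in HFD than in NC by a difference of -0.92 (SE 0.19), or -1.08 (SE 0.14) without NC5 and -0.80 (SE 0.17) without NC6. SZ-A exceeded HFD by 0.96 (SE 0.12), a 1.95-fold difference. Against NC, SZ-A differed by 0.04 (SE 0.22), by -0.12 (SE 0.18) without NC5 and by 0.16 (SE 0.20) without NC6.

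Srd5a2, the 5α-reductase best known from prostate, was barely expressed. It lay between 0.428 and 1.15 FPKM over the 18 mice, which is 12 to 33 fragments per mouse, and was left out of the fit because its mean was below 1 FPKM. Medians were 0.818, 0.826 and 0.884 FPKM for NC, HFD and SZ-A, and the groups overlapped. Fitted without the filter, the differences were 0.11 (SE 0.13) for HFD against NC and 0.00 (SE 0.18) for SZ-A against HFD.

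The 250 bases before the start of Srd5a1 are shown, with the GC box, searched as GGGCGG on both strands, in capitals. The sequence is from RefSeq for GRCm38.p6 (chr13:69611464-69611713, minus strand) and is written 5′ to 3′.
Srd5a1: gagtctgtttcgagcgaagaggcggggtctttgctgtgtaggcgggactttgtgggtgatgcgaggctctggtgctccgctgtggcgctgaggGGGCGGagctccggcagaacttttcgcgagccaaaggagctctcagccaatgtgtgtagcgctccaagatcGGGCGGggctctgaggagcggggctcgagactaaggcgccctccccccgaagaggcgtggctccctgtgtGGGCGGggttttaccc
This window held 3 GC boxes and 64.8% G and C, against a median of 52.4% over the 32851 promoters of the same length, of which 32.7% held a GC box. The window of Srd5a2 held 2 GC boxes and 63.2% G and C. Those of the other 7 genes with an entry held none, and Hsd17b2 has no entry in the RefSeq table used. For Akr1c14 and Hsd11b1 the window lies inside the deposited gene. For Hsd3b5 it lies well upstream, from 98645535 on, where the deposited gene ends at 98630252. A link between the windows and the levels was not tested. The 5β-reductase Akr1d1, which competes for the same substrates, was called higher in HFD than in NC, and the ratio of Srd5a1 to Akr1d1 in FPKM had a median of 0.808 in NC (0.419 to 1.09), 0.230 in HFD (0.159 to 0.332) and 0.491 in SZ-A (0.202 to 1.89). Every HFD ratio was below every NC ratio, whereas the SZ-A ratios reached into both ranges.

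Akr1c6, which encodes the mouse type 5 17β-hydroxysteroid dehydrogenase, had the highest level of the 10 genes in every group (chromosome 13, 4434306 to 4457877, plus strand; ENSMUSG00000021210). NC mice ranged from 80.9 to 345 FPKM, with a median of 277. HFD mice ranged from 424 to 597 (median 506). In SZ-A mice the lowest level was 393 and the highest 710, around a median of 598. Every mouse on the high-fat diet, with or without SZ-A, was above every NC mouse, while HFD and SZ-A mice overlapped. The difference of HFD from NC was 1.2 (SE 0.29), or 0.91 (SE 0.16) without NC5. SZ-A differed from HFD by 0.18 (SE 0.13) and from NC by 1.38 (SE 0.30), or by 1.09 (SE 0.18) without NC5.

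Akr1c14, a 3α-hydroxysteroid dehydrogenase that acts on 5α-reduced androgens and progestins, was also higher in both high-fat groups (chromosome 13, 4049011 to 4090688, plus strand; ENSMUSG00000033715). Its levels were 23.7 to 60.1 FPKM in NC (median 55.2), 73.3 to 153 in HFD (median 96.5) and 78.9 to 161 in SZ-A (median 109). No NC mouse reached the lowest HFD or SZ-A mouse. HFD differed from NC by 1.05 (SE 0.24), or by 0.85 (SE 0.16) without NC5, which was far below the other NC mice. The SZ-A group differed from HFD by 0.08 (SE 0.21), from overlapping levels. The ratio of Akr1c6 to Akr1c14 in FPKM had medians of 5.03, 5.27 and 5.02 in NC, HFD and SZ-A, with ranges that overlapped in all 3 groups (2.86 to 5.83, 3.79 to 6.35 and 4.40 to 7.47).

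Both genes belong to a cluster of 8 Akr1c genes that spans 538 kb of chromosome 13, from 4049011 to 4586541. The cluster held 6 genes with a mean of at least 1 FPKM in some group. Besides the pair above, these were Akr1c20 and Akr1c13, called higher in HFD than in NC, and Akr1c12 and Akr1c19, which were not called. Akr1c18, the 20α-hydroxysteroid dehydrogenase of ovary, and Akr1c21 stayed under 0.2 FPKM in every group mean. Neighbours in this region differed widely in level.

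The 3β-hydroxysteroid dehydrogenases split into a pair that was higher in both high-fat groups and 1 gene, Hsd3b5, that was highest in SZ-A mice. The 6 Hsd3b genes lie within 361 kb of chromosome 3 (98499071 to 98859794). Of these, Hsd3b2, Hsd3b3 and Hsd3b5 were expressed, and Hsd3b1, the steroidogenic enzyme of gonad and adrenal, Hsd3b4 and Hsd3b6 had group means under 0.2 FPKM. The 250 bases before the start of each of the 3 expressed neighbours are shown, from RefSeq for GRCm38.p6, 5′ to 3′ on the minus strand (Hsd3b5 chr3:98645535-98645784, Hsd3b3 chr3:98763129-98763378, Hsd3b2 chr3:98724544-98724793). Hsd3b3 has a further start in the table, not shown. Capitals mark runs of 12 or more bases that a window shares with another of the 3.
Hsd3b5: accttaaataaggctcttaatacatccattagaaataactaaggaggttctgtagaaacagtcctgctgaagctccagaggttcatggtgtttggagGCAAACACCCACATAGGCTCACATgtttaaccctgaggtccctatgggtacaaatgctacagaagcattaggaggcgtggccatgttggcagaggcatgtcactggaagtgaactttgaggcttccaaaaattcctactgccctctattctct
Hsd3b3: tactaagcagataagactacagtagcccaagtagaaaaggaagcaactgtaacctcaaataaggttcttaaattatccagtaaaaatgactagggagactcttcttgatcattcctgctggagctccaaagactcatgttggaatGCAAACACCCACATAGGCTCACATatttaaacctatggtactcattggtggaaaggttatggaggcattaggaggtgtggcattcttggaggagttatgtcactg
Hsd3b2: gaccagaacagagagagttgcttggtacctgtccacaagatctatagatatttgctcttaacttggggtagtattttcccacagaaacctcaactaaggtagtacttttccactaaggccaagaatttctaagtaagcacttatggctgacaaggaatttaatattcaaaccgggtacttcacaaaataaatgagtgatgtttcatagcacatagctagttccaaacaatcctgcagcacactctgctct
Hsd3b5 and Hsd3b3 shared a run of 24 bases, and their windows aligned over 197 bases with 78.2% identity. Hsd3b2 shared no run of 12 bases with either, and its longest local alignments with them covered 31 and 15 bases. Whether these sequences bear on the levels was not tested. None of the 3 windows held TTCNNNGAA, the motif of STAT factors, which 7.02% of all promoters held on either strand, nor TATAAA (12.4% of all). That of Hsd3b2 held AGAACA, a half-site of the glucocorticoid receptor, as did 16.1% of all. The RefSeq start of Hsd3b5 lies upstream of the gene end in the deposited table (98630252), so its window belongs to a start outside the table's gene model. What this window holds or shares is therefore not shown for the start of the gene model that was measured.

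Hsd3b3, expressed in liver and kidney, ranged from 1.48 to 11.7 FPKM in NC mice, with a median of 7.63 (98741523 to 98763127; ENSMUSG00000062410). HFD mice ranged from 17.8 to 27.8 (median 23.0) and SZ-A mice from 14.3 to 39.9 (median 29.0). No NC mouse overlapped with either high-fat group. The HFD difference from NC was 1.81 (SE 0.38), or 1.4 (SE 0.14) without NC5. SZ-A differed from HFD by 0.23 (SE 0.20).

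Hsd3b2 was the lower of the pair, at 0.451 to 5.99 FPKM in NC (median 3.14), 6.96 to 12.6 in HFD (median 9.37) and 3.79 to 13.3 in SZ-A (median 9.30; 98709255 to 98724543; ENSMUSG00000063730). Each HFD mouse was above each NC mouse, and SZ-A5, the lowest SZ-A mouse, was the only one to reach the NC range. HFD differed from NC by 1.90 (SE 0.45), or by 1.46 (SE 0.25) without NC5, and SZ-A differed from HFD by -0.11 (SE 0.27). The ratio of Hsd3b2 to Hsd3b3 stayed in a narrow band, with medians of 0.376, 0.431 and 0.324 in NC, HFD and SZ-A.

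Hsd3b5, the male-predominant 3β-hydroxysteroid dehydrogenase of mouse liver, works mainly as a 3-ketosteroid reductase, and its levels varied most of the 10 genes (98618634 to 98630252; ENSMUSG00000038092). NC mice ranged from 0.957 to 24.7 FPKM (median 4.87) and HFD mice from 0.227 to 36.0 (median 11.2). In SZ-A mice the lowest level was 24.8, the median 72.04 and the highest 148. The coefficient of variation was 120.0%, 107% and 57.1% for NC, HFD and SZ-A. All SZ-A mice were above all NC mice, narrowly so for SZ-A2 (24.76) against NC6 (24.73), and 5 of the 6 were above all HFD mice, the exception being SZ-A2, below HFD3. On the log2 scale SZ-A differed from HFD by 3.59 (SE 0.97), and by 2.79 without HFD4 or 4.14 without HFD3. The lowest value of all, in HFD4, rested on 7 fragments. SZ-A differed from NC by 3.92 (SE 0.69), or by 3.52 (SE 0.65) without NC5 and 4.43 (SE 0.58) without NC6. HFD differed from NC by 0.33 (SE 1.09), a value without a stable sign: it was -0.07 without NC5, 0.84 without NC6, -0.22 without HFD3 and 1.14 without HFD4.

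**Figure D2:**
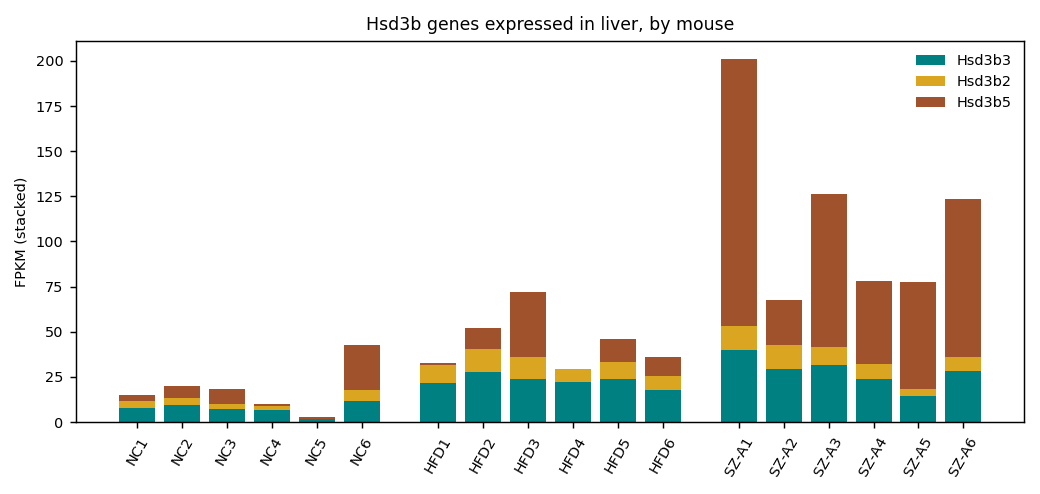
Summed FPKM (vertical axis, stacked bars from 0) of Hsd3b3, Hsd3b2 and Hsd3b5 in each of the 18 mice. NC mice summed to 2.89 to 42.4, HFD mice to 29.5 to 71.96 and SZ-A mice to 67.4 to 201.1, and Hsd3b5 made up the larger part of the summed FPKM in 5 of the 6 SZ-A mice. The parts depend on the deposited gene lengths and may differ from parts of mRNA.

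The makeup of the summed 3β-hydroxysteroid dehydrogenase FPKM followed from these levels, and it depends on the gene lengths used. The deposited lengths were 6396 bases for Hsd3b3, 3695 for Hsd3b2 and 1549 for Hsd3b5. The longest coding transcript of Hsd3b3 has 1533 bases, so its FPKM may understate its mRNA. Shares of mRNA may therefore differ from the shares of FPKM given here. Hsd3b5 contributed 11.7% to 58.3% of the summed FPKM of the 3 genes in NC mice (median 32.8%), 0.771% to 50.1% in HFD (median 25.2%) and 36.8% to 76.6% in SZ-A (median 68.8%). Hsd3b3 was the largest part in NC and HFD, with medians of 49.6% and 52.7%, and had a median share of 24.1% in SZ-A, where its own median level was 29.0 FPKM. The ranges of the Hsd3b5 share overlapped between all groups. These genes are near-identical in places: of the 150-base windows of the longest coding transcript, 6.14% in Hsd3b3, 2.23% in Hsd3b2 and 1.21% in Hsd3b5 also occur in another gene, so part of their fragments may have been split or dropped. Hsd3b2 and Hsd3b3 share windows with each other, and at 50 bases 25.5% of the windows of Hsd3b2 and 28.7% of those of Hsd3b3 occur in another gene. The genes that share 150-base windows with Hsd3b5, Hsd3b4 and Gm10681, were at 0 in all mice. For Srd5a1 the share was 13.1%, with the overlapping gene Gm17108, which reached at most 0.160 FPKM.

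Hsd11b1, which regenerates corticosterone, was the second most abundant of the 10 genes in NC mice and differed by at most 0.17 on the log2 scale between groups (chromosome 1, 193221634 to 193264075, minus strand; ENSMUSG00000016194). NC mice ranged from 98.8 to 129 FPKM (median 124), HFD mice from 96.6 to 174 (median 110) and SZ-A mice from 119 to 161 (median 131). All 3 groups overlapped. The differences were -0.02 (SE 0.13) for HFD against NC, 0.17 (SE 0.13) for SZ-A against HFD and 0.15 (SE 0.09) for SZ-A against NC. H6pd, which supplies the NADPH that this enzyme uses, averaged 104 ± 18.1, 106 ± 15.3 and 111 ± 24.2 FPKM (SD, n = 6 each) and was called in no comparison.

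Hsd17b2, an oxidative enzyme that inactivates estradiol and testosterone, had close NC levels of 40.9 to 51.5 FPKM (median 43.9; chromosome 8, 117701904 to 117759027, plus strand; ENSMUSG00000031844). HFD mice spread from 37.7 to 74.3 (median 54.2), with HFD1, HFD4 and HFD6 in or below the NC range and the other 3 above it. SZ-A mice ranged from 54.4 to 67.7 (median 55.3), all above all NC mice. SZ-A differed from NC by 0.36 (SE 0.08), the smallest standard error of the 9 genes in that comparison, and from HFD by 0.13 (SE 0.15). HFD differed from NC by 0.23 (SE 0.15).

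Hsd17b6, related to the retinol dehydrogenases and able to oxidise 3α-hydroxysteroids back to active androgens, was higher in both high-fat groups, with overlap (chromosome 10, 127990936 to 128007611, minus strand; ENSMUSG00000025396). NC mice lay between 35.8 and 102 FPKM (median 46.7), with NC6 the highest. HFD mice ranged from 73.6 to 150 (median 90.3) and SZ-A mice from 92.3 to 187 (median 118). Without NC6 both high-fat groups were clear of NC, whose next highest mouse was at 72.2. HFD differed from NC by 0.89 (SE 0.26), or by 1.08 (SE 0.22) without NC6. SZ-A differed from HFD by 0.32 (SE 0.20) and from NC by 1.21 (SE 0.25). The 150-base windows of its transcript occurred in Rdh1 or Rdh16f1 for 7.21%, and neither gene exceeded 0.169 FPKM in any mouse.

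**Figure D3:**
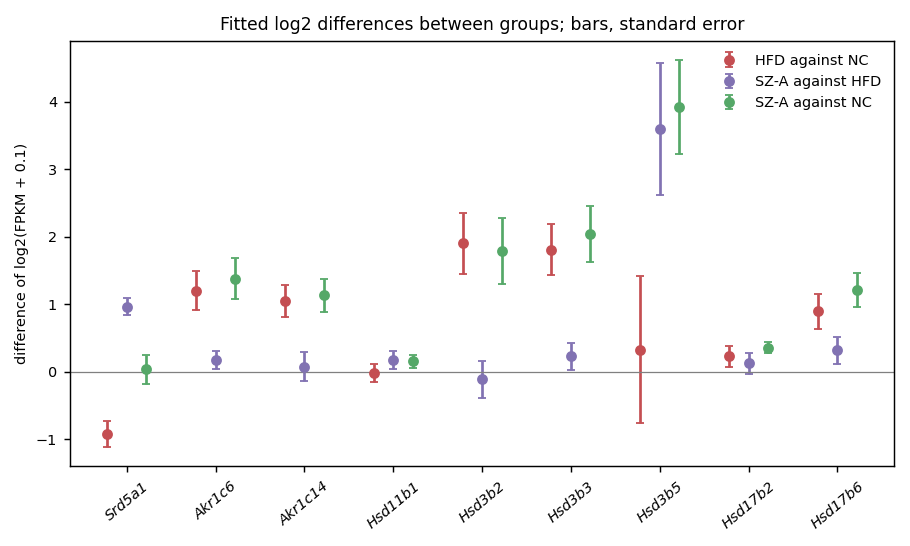
Fitted differences of log2(FPKM + 0.1) (vertical axis) for 9 of the genes in HFD against NC, SZ-A against HFD and SZ-A against NC, with bars of 1 standard error and 6 mice per group. Srd5a1 sits at -0.92 for HFD against NC and 0.96 for SZ-A against HFD, while Hsd3b5 shows the largest SZ-A differences, at 3.59 and 3.92, and the widest bars.

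Across all genes tested, a call required an adjusted p under 0.05 in limma and a fold change over 1.2. Because the 10 genes were chosen on these values, the following counts are given beside those of all 10216 tested genes and nothing is read from them. For HFD against NC, 5 of the 9 genes in the fit met the rule as higher (Akr1c6, Akr1c14, Hsd3b2, Hsd3b3, Hsd17b6) and 1 as lower (Srd5a1), where 10.7% and 9.49% of all tested genes did. That of Hsd17b6 was made in 18 of 25 alternative fits, and not without NC2, NC4, HFD4 or HFD5. Groups did not overlap for 4 of the 9, and for 10.5% of all. For SZ-A against HFD, Srd5a1 met the rule as higher and none as lower, beside 0.0783% and 0.0685% of all genes. It was also the single gene of the 9 without overlap, beside 1.28% of all. The call of Srd5a1 was not made without HFD4, without SZ-A6 or with no filter on low values. Hsd3b5, despite its larger difference, did not meet the rule for SZ-A against HFD. For SZ-A against NC, 7 of 9 met it as higher, all but Srd5a1 and Hsd11b1, and none as lower, beside 5.31% and 4.3%. That of Hsd3b2 was made in 16 of 25 alternatives, and not without NC3, NC4, SZ-A1, SZ-A2, SZ-A3, SZ-A4 or SZ-A6. Groups did not overlap for 5 of 9, beside 5.5% of all. The median difference of the 9 was 0.89, 0.18 and 1.21 in the 3 comparisons, where the median of all tested genes was -0.03, 0.03 and -0.01. When the FPKM of each mouse were scaled to one common total, calls for HFD against NC went from 1092 higher and 970 lower to 2100 and 334, and for SZ-A against HFD from 8 and 7 to 10 and 206. The median of all genes then moved from -0.03 to 0.15 and from 0.03 to -0.15. Srd5a1 stood at -0.73 and 0.78 under it, and Hsd11b1 at 0.17 for HFD against NC, on the other side of 0. For SZ-A against HFD the small differences of Akr1c14, Hsd11b1 and Hsd17b2 also changed sign, to -0.10, -0.01 and -0.05. The first and second comparisons share the HFD mice, and the first and the third the NC mice.

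In order of mean FPKM, NC mice had Akr1c6 (243 FPKM), Hsd11b1 (119.8), Hsd17b6 (57.0), Akr1c14 (51.1), Hsd17b2 (45.2), Srd5a1 (24.3), Hsd3b3 (7.48), Hsd3b5 (7.44), Hsd3b2 (3.10) and Srd5a2 (0.772). Hsd17b6, Akr1c14 and Hsd17b2 lay within their spread of each other, as did Hsd3b3 and Hsd3b5. In HFD mice Srd5a1 (12.2 ± 0.949 FPKM, SD, n = 6) was below Hsd3b3 (22.9 ± 3.23) and lay beside Hsd3b5 (12.1 ± 12.9). In SZ-A mice Hsd3b5, at 74.99 ± 42.8, averaged above Hsd17b2 (57.9 ± 5.29), Hsd3b3 (27.9 ± 8.56) and Srd5a1 (24.1 ± 4.63). The spread of Hsd3b5 reached the level of Hsd17b2. These orders between genes depend on the deposited gene lengths, which exceed the longest coding transcript for some genes. The lengths were 4251 against 1623 bases for Hsd11b1 and 6396 against 1533 for Hsd3b3, so an order by mRNA may differ.

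Deviations of single mice from their group means showed which genes varied together within groups. Pearson's r over the 18 mice was highest for Hsd3b2 with Hsd3b3, at 0.951, and 0.887 without NC5. As this pair shares transcript windows, fragments may have been assigned across it, and their part in this r was not tested. Akr1c6 and Hsd3b3 had an r of 0.901, which dropped to 0.667 without NC5, and that of Akr1c6 and Akr1c14 went from 0.736 to 0.441. Hsd11b1 and Hsd17b6 had an r of 0.655, and 0.669 without NC5. Srd5a1 and Hsd11b1 had the lowest value, -0.0936. All pairs among Akr1c6, Akr1c14, Hsd3b2, Hsd3b3 and Srd5a1 had a lower r without NC5, the mouse that stood apart.

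**Figure D4:**
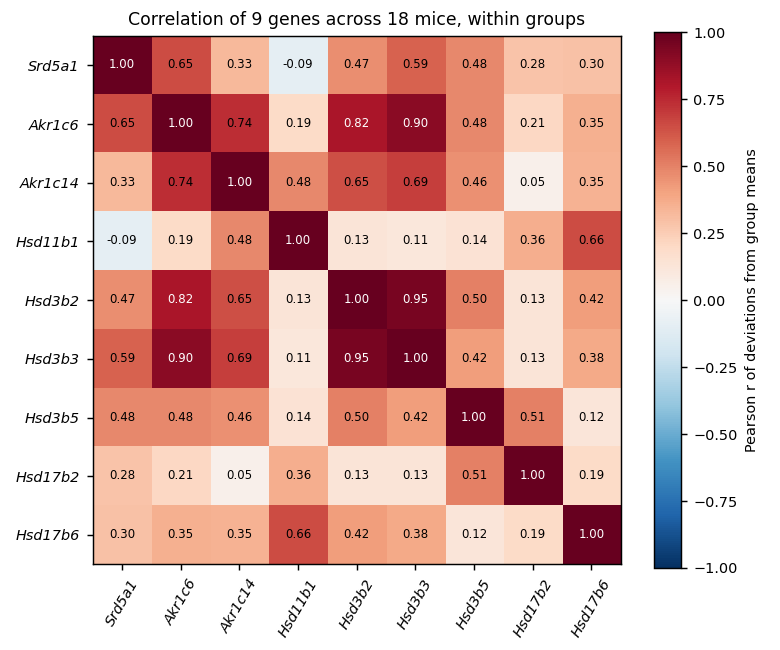
Pearson's r (colour scale from -1 to 1, values printed in the cells) of deviations from group means in log2(FPKM + 0.1) for each pair of 9 genes, over 18 mice. Hsd3b2 and Hsd3b3 form the closest pair at 0.951, and Srd5a1 with Hsd11b1 has the lowest value at -0.0936.

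The genes of the whole table whose within-group deviations were most like those of Hsd3b5 were Ugt2b1 (r = 0.947), a glucuronosyltransferase, Slco1a1 (0.925), an organic anion transporter with higher levels in male liver, and Slc22a28 (0.889), with values of 0.941, 0.922 and 0.895 without NC5. Those most like Srd5a1 were Akap1 (0.879), an anchor of protein kinase A, Cys1 (0.871) and Irs1 (0.841), an insulin receptor substrate. These came to 0.791, 0.782 and 0.787 without NC5. For Akr1c6 they were 1600014C10Rik, Klkb1 and Aox3, at 0.953 to 0.958 (0.844 to 0.878 without NC5), and for Akr1c14 they were N4bp2, Slco1b2 and Ugt2b34, at 0.904 to 0.916 (0.820 to 0.851 without NC5). Acbd5, Hsd3b3 and Ubp1 were most like Hsd3b2 (0.940 to 0.969, and 0.864 to 0.924 without NC5), and Slc25a23 (0.964, and 0.884 without NC5) and Hsd3b2 (0.951) were among those most like Hsd3b3. Ppp3r1, Rbbp4 and Rhoa were most like Hsd11b1 (0.806 to 0.867, and 0.811 to 0.875 without NC5). For Hsd17b6 they were Tor1aip1, Mrpl39 and Ccdc50 (0.750 to 0.812, and 0.768 to 0.819 without NC5). For Hsd17b2 they were Cela1, Mrps14 and Txnl4b (0.741 to 0.762, and 0.778 to 0.796 without NC5).

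Of 32 further enzymes of steroid metabolism, 19 passed the filter. Between HFD and NC, 4 were called higher and 4 lower, and their median difference was 0.04, beside -0.03 for all genes. Higher in HFD were Akr1c20, an aldo-keto reductase of the same cluster as Akr1c6 (log2 difference 1.60, adjusted p = 0.000762 in limma), Rdh9 (0.84, adjusted p = 0.000534), the 5β-reductase Akr1d1 (0.78, adjusted p = 0.0306) and Akr1c13 (0.42, adjusted p = 0.0158). Akr1c20 rose from 17.4 ± 6.13 FPKM in NC to 49.9 ± 7.35 in HFD and was at 46.0 ± 11.3 in SZ-A (SD, n = 6 each). Lower in HFD were Cyp17a1, the 17α-hydroxylase (difference -1.57, adjusted p = 0.0484), Hsd17b7, which also serves cholesterol synthesis (-1.23, adjusted p = 2.78e-05), Cyp2d9, a male-predominant testosterone hydroxylase (-0.75, adjusted p = 0.00334), and Hsd17b13, a lipid droplet protein (-0.44, adjusted p = 0.0268). Hsd17b7 had 16.7 ± 2.09, 7.05 ± 0.945 and 10.7 ± 4.03 FPKM for NC, HFD and SZ-A. The 8 calls became 5 without NC4, HFD3 or HFD4. The calls of Cyp17a1, Akr1d1 and Hsd17b13 were lost in 14, 10 and 8 of 25 alternative fits. Between SZ-A and HFD limma called none of the 19 in either direction, with 3 at an unadjusted p under 0.05, and voom called 0, whereas 1 was called after scaling to a common total. Against NC, SZ-A mice were higher in Akr1c20 (1.45, adjusted p = 0.00666) and Rdh9 (0.83, adjusted p = 0.0128), and lower in Hsd17b13 (-0.81, adjusted p = 0.00359) and Hsd17b7 (-0.70, adjusted p = 0.0358). That of Hsd17b7 was lost in 11 of 25 alternatives.

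**Figure D5:**
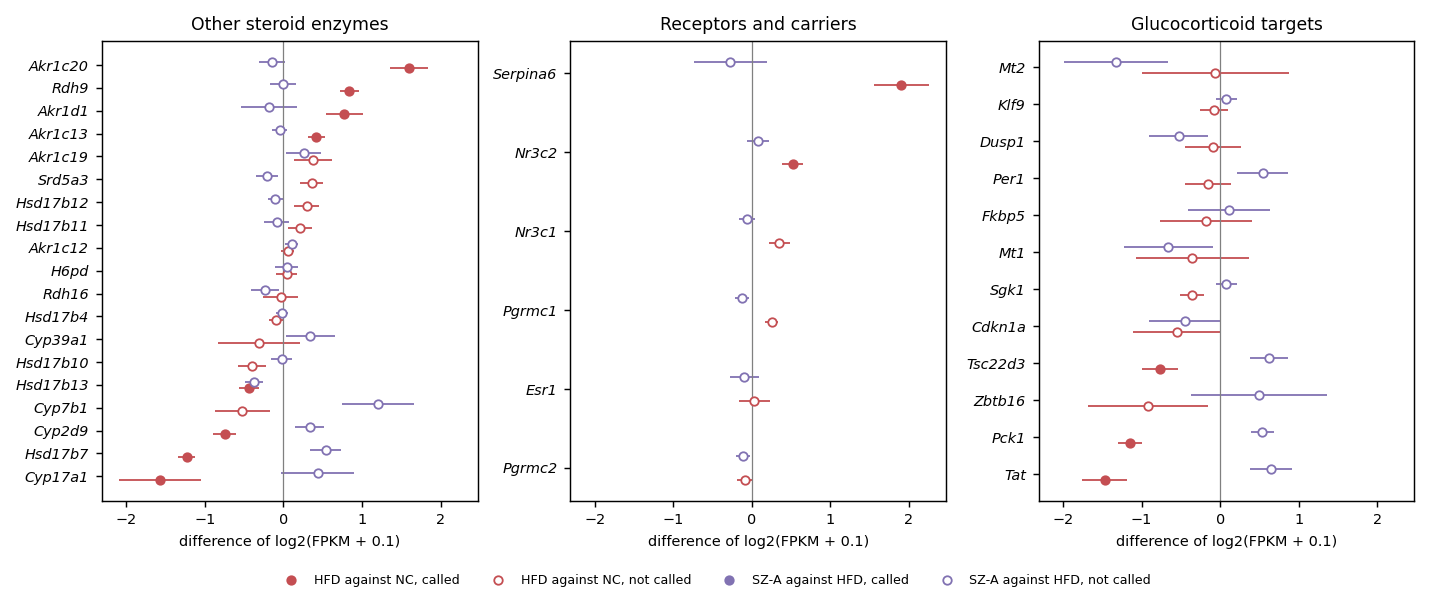
Differences of log2(FPKM + 0.1) (horizontal axes) with bars of 1 standard error for other steroid enzymes, 6 of the steroid receptors and carriers, and glucocorticoid targets. Red marks HFD against NC and purple SZ-A against HFD, filled where called and open where not; all filled points are red, from Cyp17a1 at -1.57 to Serpina6 at 1.90.

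Among 9 receptors and carriers of steroids, 7 passed the filter and 2 were called higher in HFD than in NC. Serpina6, the corticosteroid-binding globulin secreted by the liver, rose from 28.9 ± 15.5 to 97 ± 28.2 FPKM (SD, n = 6 each; log2 difference 1.90, adjusted p = 0.00246 in limma). The mineralocorticoid receptor Nr3c2 rose by 0.52 (adjusted p = 0.0183). The glucocorticoid receptor Nr3c1, at 9.58 ± 1.94 FPKM in NC and 12.1 ± 1.23 in HFD, was not called. None of the 7 was called between SZ-A and HFD by limma or voom, with 1 at an unadjusted p under 0.05. Nr3c2 was also higher in SZ-A than in NC (0.60, adjusted p = 0.0280), a call lost in 9 of 24 alternatives.

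All 12 glucocorticoid-responsive genes on a further list passed the filter, and 3 were called lower in HFD than in NC, with a median difference of -0.36 over the list. Tat, a tyrosine-degrading enzyme, fell from 1010 ± 389 to 365 ± 148 FPKM (SD, n = 6 each; log2 difference -1.47, adjusted p = 0.00297 in limma). Pck1, the gluconeogenic enzyme, fell from 1170 ± 238 to 525 ± 95.6 FPKM (-1.15, adjusted p = 0.000253). Tsc22d3, an anti-inflammatory glucocorticoid target, had a difference of -0.77 (adjusted p = 0.0327), which was lost in 11 of 25 alternatives. None of the 12 was called between SZ-A and HFD in the limma fit or voom, though 3 had an unadjusted p under 0.05 and limma with sample weights called 1. Pck1 was also lower in SZ-A than in NC (-0.61, adjusted p = 0.0236), lost in 5 of 25. Fkbp5 and Zbtb16, further targets of the receptor, differed by -0.18 (SE 0.58) and -0.92 (SE 0.77) between HFD and NC and were not called.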

How the data were processed

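Poly-A RNA of liver was sequenced by the authors as paired-end reads on an Illumina NovaSeq, from 6 mice per group, and aligned to GRCm38 with HISAT2 2.0.5. The submitters' processing notes also name featureCounts 1.5.0-p3. The authors deposited FPKM per gene, which are normalized values and not counts. FPKM times gene length gave whole fragments for 100.0% of values (tolerance 0.05), with library factors of 0.9325 to 1.1414. Groups were taken from sample titles. From the deposited FPKM, log2(FPKM + 0.1) of the 10216 genes with a mean of at least 1 over 18 mice was fitted in R 4.3.3 with limma 3.58.1 (lmFit, eBayes with trend), each comparison on its own 12 mice without covariates. P-values were adjusted by Benjamini-Hochberg over all tested genes, and a call required 0.05 and a fold change over 1.2. The authors used DESeq2, which needs counts. The fits were tested on simulated data. Members and gene lists were chosen with earlier results of these data known, and no adjusted p is given for members. Genes of other lists are named if called, up to 5 per list and comparison. For each member the 3 most alike genes are named. A few genes under these rules are not reported here. The labels do not say that mice of a group came from separate cages, and p-values measure the spread between these mice. Alternatives were pseudocounts of 1 and 0.01, other filters, scalings, weights and call rules, a replicate block, voom on fragments and leaving out each mouse. Tables and figures were made in Python 3.11.15 (pandas 2.3.3, numpy 2.4.6, matplotlib 3.10.9). Promoters were taken from RefSeq (GRCm38.p6) and transcripts from GENCODE M21.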

Additional observations from a re-analysis of the deposited data

Results flagged for a closer look

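Of 30 sets of 6 mice (10 genes in 3 groups), 4 held a mouse whose gap to the nearest other mouse, as a share of the whole range, passed Dixon's critical value for 6 mice at the 95% level. Chance passes it in about 1 of 20 sets if the values are normally distributed. The shares were taken on linear FPKM, where Hsd3b5 had a coefficient of variation of 120.0% in NC and 107% in HFD. Whether that rate holds for these sets was not tested, so nothing is read from the count of 4. In NC, Akr1c14 was lowest in NC5, at 23.68 FPKM against 52.42 in the next mouse (share 0.789). NC6 had the highest Hsd3b5 of its group, at 24.73 FPKM against 8.046 (share 0.702). In HFD, Hsd3b5 was highest in HFD3, at 36.04 FPKM against 12.76 (share 0.650). Hsd11b1 was highest in HFD5, at 173.9 FPKM against 124.2 (share 0.643). NC5 is the mouse whose profile stood apart, and NC6 the one whose diet label goes against its title. Their part in these values was not tested.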

How the results depend on the processing

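The 14 differences that met the call rule among the 10 genes kept their sign in all 23 alternative fits of each. None moved by more than 1 SD between mice, but much of this was fixed in advance. Other filters, all 18 mice in one fit, no trend and the replicate block leave a difference unchanged, so they test neither its sign nor its size. Leaving out 1 mouse shifts a group mean by less than 1 SD, so those fits could not pass that limit. The calls of the 14 differences were less stable. Of 25 alternatives, Hsd17b6 was called in 18 for HFD against NC and Hsd3b2 in 16 for SZ-A against NC. The 13 other differences took the other sign in 21 fits in all. For HFD against NC, 2062 genes were called, 371 with a fold change over 2 and 1271 with a mean FPKM of at least 5, which tests fewer genes. Leaving out 1 mouse gave 1646 to 2145. For SZ-A against HFD, 15 genes were called (8 higher, 7 lower), 7 with a fold change over 2, 0 with no filter (2741 at an unadjusted p under 0.05), 26 with a mean of at least 5, 35 with all 18 mice in one fit, 233 with sample weights and 26 with voom. Leaving out 1 mouse gave 2 to 49 (2 without HFD4 or SZ-A6, 49 without SZ-A2). The call of Srd5a1 gave way to 0 of the 9 genes with a fold change over 2, with no filter, with the replicate block, without HFD4 and without SZ-A6. Leaving out 1 mouse gave 0 to 1. For SZ-A against NC, 981 genes were called, 205 with a fold change over 2, 564 with no filter and 1682 with sample weights, and 601 to 1179 when 1 mouse was left out, with 601 without SZ-A3 and 629 without SZ-A6. FPKM rescaled to a common sum gave 2434 calls for HFD against NC, 216 for SZ-A against HFD and 796 for SZ-A against NC. Calls among receptors and carriers for HFD against NC went from 2 to 4 under it. Calls among female-predominant genes went from 5 to 3 with a mean of at least 5, a filter that left out the called genes Cyp2b13, Cyp2c40 and Abcd2. The cause of the other changes in calls was not tested.

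Replicate numbers do not pair the mice: same-numbered mice correlated at -0.117 to 0.292 in their deviations. With a replicate block, 1647 genes were called for HFD against NC, 0 for SZ-A against HFD (1492 at an unadjusted p under 0.05 in limma) and 922 for SZ-A against NC, and 5, 0 and 7 of the 9 genes. Fragment numbers of 7 to 33 limit the lowest values of Hsd3b5 and those of Srd5a2.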

Other observations

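Genes with a known sex difference in mouse liver were listed because Hsd3b5 is one of them. Of 18 male-predominant genes 17 passed the filter, and 5 were called lower and 1 higher in HFD than in NC, with a median difference of -0.72. These 6 calls became 11 without HFD3 and 12 with sample weights. Serpina1e, a protease inhibitor, fell from 2180 ± 307 to 566 ± 562 FPKM (SD, n = 6 each; log2 difference -2.41, adjusted p = 0.00246 in limma) and averaged 2080 ± 1250 in SZ-A. Elovl3, a fatty acid elongase, fell by 1.83 (adjusted p = 0.00278) and Cyp4a12b by 1.83 (adjusted p = 0.00137), while Nudt7, a peroxisomal hydrolase, rose by 1.19 (adjusted p = 0.00245). Gstp1, a glutathione transferase, fell by 0.92 (adjusted p = 0.0182). Between SZ-A and HFD all 17 differences were above 0, with a median of 0.57, but limma with equal weights and voom called none, with 6 at an unadjusted p under 0.05, and limma with sample weights called 2. The mice are shared by all genes, so the 17 signs are not independent. The list was also chosen with earlier results of these data known, so no conclusion is drawn from the signs. In SZ-A against NC, Nudt7 was higher (1.5, adjusted p = 0.00226) and Elovl3 lower (-1.61, adjusted p = 0.0128).

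Of 24 female-predominant genes 10 passed the filter, and 3 were called higher and 2 lower in HFD than in NC. Cyp2b9, a cytochrome P450, averaged 0.280 ± 0.311, 88.2 ± 57.2 and 43.1 ± 34.0 FPKM for NC, HFD and SZ-A mice (SD, n = 6 each; log2 difference of HFD from NC 7.87, adjusted p = 1.25e-05 in limma, which depends on the pseudocount; of SZ-A from NC 6.33, adjusted p = 0.00172, and 1.2e-05 to 0.108 over the alternatives, the highest in voom). Its neighbour Cyp2b13 was at 0.00942 ± 0.0231, 4.69 ± 5.92 and 1.37 ± 2.24 FPKM, and such near-identical genes may share fragments. Abcd2, a peroxisomal transporter, rose by 0.73 (adjusted p = 0.0181), while Cyp2c40 fell by 2.36 (adjusted p = 0.00457). Cyp17a1 is also on the list of steroid enzymes (-1.57, adjusted p = 0.0484). In SZ-A against NC, Cyp2b9 was the 1 call, and 3 were made without SZ-A5. None was called between SZ-A and HFD by limma or voom, with 1 at an unadjusted p under 0.05.

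Of 10 genes of growth hormone signalling 9 passed the filter. The receptor Ghr (0.66, adjusted p = 0.0408 in limma), Stat5a (0.68, adjusted p = 0.0199) and Igfals (0.71, adjusted p = 0.0193), a carrier of insulin-like growth factors, were higher in HFD than in NC, and Igfals also in SZ-A than in NC (0.82, adjusted p = 0.00719). In HFD against NC the call of Ghr was lost in 11 of 25 alternatives, and those of Stat5a and Igfals in 2 each (a fold change over 2 and no filter on low values). With no filter none of the 3 was called. Igf1 averaged 44.4 ± 4.85, 42.2 ± 7.42 and 44.7 ± 2.86 FPKM in NC, HFD and SZ-A. Limma and voom called none of the 9 between SZ-A and HFD, with 1 at an unadjusted p under 0.05.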
